A study of Mus musculus with 9 samples.

Results

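The 5 genes described here encode ion pump and channel subunits that rod and cone photoreceptors use in the inner segment, the part of the cell that holds its mitochondria and most of its pumps. They were chosen by name, and with earlier results of these data known. They are the sodium pump beta subunits Atp1b1, Atp1b2 and Atp1b3, the potassium channel subunit Kcnv2 and the plasma membrane calcium pump Atp2b1. They are 5 of the 18193 genes measured, and 12 probe sets were annotated to one of them alone: 5 to Atp1b1, 3 to Atp2b1, 2 to Atp1b2 and 1 each to Atp1b3 and Kcnv2. For each gene the probe set of highest mean over the 9 arrays stands for it, and its other probe sets serve as a check. Because of how the genes were chosen, shares of all genes given beside their counts describe the set and do not test it.

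Sorted mouse retinal cells were profiled on 9 Affymetrix arrays, 3 for each of 3 groups of cells gated by their fluorescence, all on a C57BL/6J-129/Ola background. Pups of the rhoEGFP line, whose green fluorescent protein marks rods, were taken at postnatal day 4 (P4), and their retinae were sorted into cells with and without GFP, called rhoGFP-positive and rhoGFP-negative. Pups of the pNestin-GFP line, named for the progenitor filament nestin, were taken at postnatal day 0 (P0) and gave a GFP-positive fraction, called nestinGFP-positive. Each biological replicate pooled the retinae of 6 to 8 mice, so that differences between single animals are not seen. The rhoGFP-negative cells are a mixture of all other retinal cells and of any rods below the sorting gate.

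In the dark, cations enter a photoreceptor through cyclic-nucleotide-gated channels of the outer segment, and potassium leaves through channels of the inner segment. The sodium pump of the inner segment drives sodium out and potassium in, and so keeps this circulating current going. The pump pairs a catalytic alpha subunit with a glycosylated beta subunit, which carries the complex to the membrane and tunes its ion affinity. Mature photoreceptors are known for the beta subunit encoded by Atp1b2, and retinoschisin, the adhesion protein lost in X-linked retinoschisis, binds there. Kcnv2 encodes a silent potassium channel subunit that works only together with partner subunits, and loss of the human gene causes a cone dystrophy with a supernormal rod response. Calcium leaves the inner segment and the synaptic terminal through plasma membrane calcium pumps such as that of Atp2b1.

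Of 6 rod marker genes 5 were measured, and all 5 were called higher in the rhoGFP-positive fraction than in either other group, so the fraction carried the markers of its label. The mean log2 signal of these rod markers was 11.91 to 12.22 on the rhoGFP-positive, 8.30 to 9.14 on the rhoGFP-negative and 7.62 to 8.61 on the nestinGFP-positive arrays. All 5 measured progenitor markers were called higher in the nestinGFP-positive than in the rhoGFP-positive cells, and their means ran from 11.25 to 11.62 in the former, from 9.92 to 11.11 in the rhoGFP-negative and from 7.82 to 8.65 in the rhoGFP-positive cells. Of these progenitor markers 0 were called between the rhoGFP-negative and nestinGFP-positive cells. The mean of 6 cone markers was 8.03 to 8.36 on rhoGFP-positive, 7.69 to 8.16 on rhoGFP-negative and 7.28 to 7.69 on nestinGFP-positive arrays. Of these cone markers 0 were called between the rhoGFP fractions. Against the nestinGFP-positive cells 3 were called higher in the rhoGFP-positive cells. The list means of 4 microglia and 2 measured of 4 erythrocyte markers were 4.56 to 6.05 and 4.30 to 5.46 over all arrays. Between the rhoGFP fractions, with the rhoGFP-positive cells first, 2 of 5 horizontal cell and 2 of 4 endothelial markers were lower, and 1 of 4 bipolar cell and 2 of 4 pigment epithelium markers were higher. The replicate 1 arrays stood apart in a ribosomal RNA control, whose mean log2 signal was 13.62, 13.61 and 12.13 there, against 9.65 to 10.44 on the 6 other arrays. The actin 3' minus 5' difference, a sign of RNA integrity, was 0.91 ± 0.064 (log2, SD, n = 3) for rhoGFP-positive arrays, 0.65 ± 0.021 for rhoGFP-negative and 0.67 ± 0.30 for nestinGFP-positive ones. The same difference for Gapdh did not set the rhoGFP fractions apart. It was -0.08 to -0.04 on rhoGFP-positive, -0.09 to 0.05 on rhoGFP-negative and -0.25 to 0.14 on nestinGFP-positive arrays.

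The comparison of the 2 fractions of the P4 retina asks which transcripts set rods apart from the other retinal cells of the same line and age. Kcnv2 and Atp2b1 were higher and Atp1b3 and Atp1b1 lower in the rhoGFP-positive cells, while Atp1b2 was the only beta subunit of these 3 that was higher there. Kcnv2 was 5.09-fold higher and Atp1b3 was 3.95-fold lower, and limma called these 2 of the 5 genes at an adjusted p below 0.05 and a difference of at least 2-fold, a call that 10.9% of all genes received. Atp2b1 (1.93-fold higher), Atp1b2 (1.81-fold higher) and Atp1b1 (1.74-fold lower) stayed below the 2-fold minimum. At the adjusted p alone all 5 genes passed, against 24.3% of all genes. The median log2 difference of the 5 genes was 0.85, beside 0.01 over all genes, and it joins 3 positive and 2 negative values.

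Setting the rhoGFP-positive cells against the nestinGFP-positive cells of P0 compares rods with younger cells of another reporter line, and line, age and cell population cannot be told apart in it. All 5 genes were called, against 15.6% of all genes, and 35.8% of all genes passed the adjusted p alone. Kcnv2 was 8.46-fold, Atp1b2 2.87-fold and Atp2b1 2.15-fold higher in the rhoGFP-positive cells, and Atp1b3 was 6.21-fold and Atp1b1 2.92-fold lower. Both comparisons use the same 3 rhoGFP-positive arrays, so the directions they share are not independent of each other. The median of the 5 genes was 1.10, beside 0.06 over all genes.

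Between the rhoGFP-negative cells at P4 and the nestinGFP-positive cells at P0, limma called 0 of the 5 genes, against 0.989% of all genes. At the adjusted p alone 1 gene passed, Atp1b2, against 2.03% of all genes. With the replicate number as a block, 3 of the 5 passed the adjusted p alone, against 10.8% of all genes. These were Atp1b1 (limma adjusted p = 0.00863), Atp1b2 (0.00477) and Atp1b3 (0.0165), all below the 2-fold minimum. The labels do not pair these groups, and whether the replicate numbers pair them is uncertain, which limits the block here. In this comparison, too, line, age and cells differ together. The median of the 5 genes was 0.15, beside 0.03 over all genes.

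**Figure D1:**
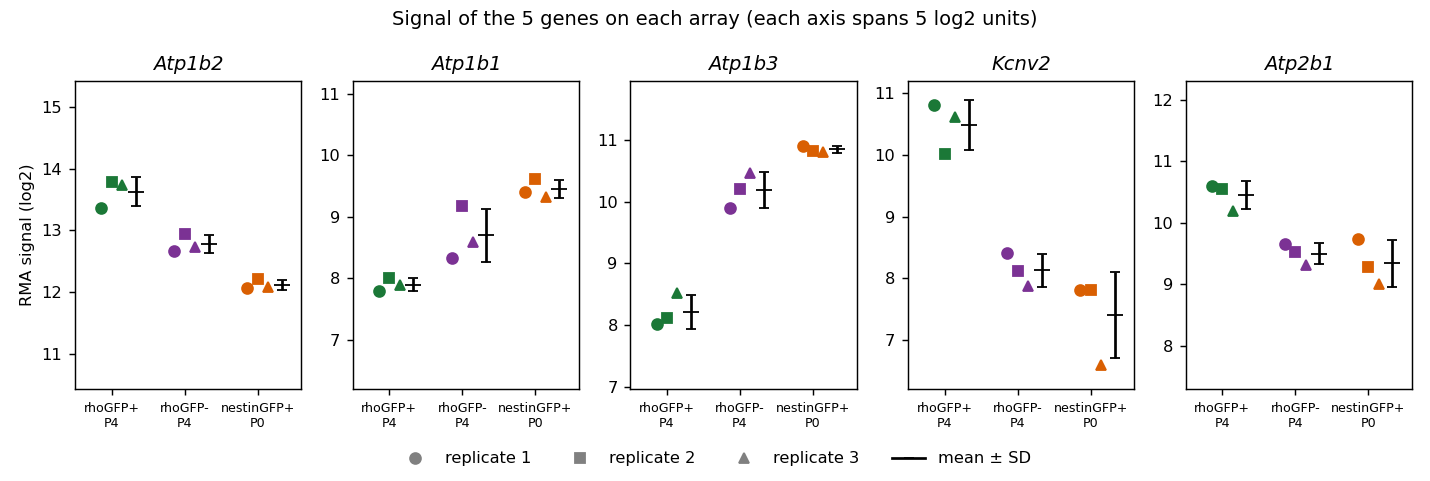
RMA signal (log2, vertical axes, each spanning 5 log2 units around its gene) of the representative probe set of each gene on the 9 arrays, by sorted group; coloured symbols mark the replicate number and black bars the mean ± SD of 3 arrays. Atp1b2, Kcnv2 and Atp2b1 were highest on the 3 rhoGFP-positive arrays, and Atp1b1 and Atp1b3 were lowest there; levels should not be compared between genes.

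Atp1b2 encodes the beta subunit first known as the adhesion molecule on glia, and lies on chromosome 11 from 69599728 to 69605978 (GRCm38.p6, as are all positions given here, with genes from RefSeq). Its probe set 1435148_at gave log2 signals of 13.37, 13.79 and 13.74 on rhoGFP-positive replicates 1, 2 and 3. On the rhoGFP-negative arrays it gave 12.66, 12.95 and 12.73, and on the nestinGFP-positive arrays 12.06, 12.21 and 12.08. The 3 groups did not overlap and stood in the order rhoGFP-positive, rhoGFP-negative, nestinGFP-positive. The mean of 13.63 ± 0.23 (SD, n = 3) in the rhoGFP-positive cells was 0.85 ± 0.14 (SE) log2 units above the 12.78 ± 0.15 of the rhoGFP-negative cells (limma adjusted p = 0.00132). Against the 12.11 ± 0.081 of the nestinGFP-positive cells the difference was 1.52 ± 0.14 (limma adjusted p = 2.35e-05). The step of 0.67 ± 0.14 between the rhoGFP-negative and nestinGFP-positive cells passed the adjusted p (limma adjusted p = 0.0439) and not the 2-fold minimum, and leaving out single arrays moved that adjusted p to between 0.0413 and 0.137.

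Within same-numbered arrays the Atp1b2 difference between the rhoGFP fractions was 0.70, 0.84 and 1.01. Since these groups did not overlap, any pairing of their arrays gives the same direction. A second, dimmer probe set of Atp1b2, 1422009_at, gave 10.22, 8.62 and 9.17 on rhoGFP-positive arrays, 8.53, 7.34 and 7.83 on rhoGFP-negative ones and 8.18, 7.63 and 6.46 on nestinGFP-positive ones. On it the replicate 1 array was the highest of each group, and the difference between the rhoGFP fractions was larger but less certain, at 1.44 ± 0.52 (limma adjusted p = 0.0969 over all probe sets). When its 2 probe sets were averaged, Atp1b2 was called between the rhoGFP fractions, at 1.15 (limma adjusted p = 0.00515). Since Atp1b2 is also known from glia, the glial markers stand beside it: the mean of 5 Müller glia markers ran from 6.84 to 7.37 on rhoGFP-positive, from 8.10 to 8.64 on rhoGFP-negative and from 7.89 to 8.49 on nestinGFP-positive arrays. The mean of 3 measured of 4 astrocyte markers was 4.75 to 4.98, 5.42 to 5.91 and 5.17 to 5.47 in the same order. The means of both lists were lowest on the rhoGFP-positive arrays, where Atp1b2 was highest, but not all members fell. Between the rhoGFP fractions 3 of the 5 Müller glia markers were called lower. Glul was at -0.99 (limma adjusted p = 0.00033), just short of the 2-fold minimum, while Aqp4 was at 0.07. Of the 3 astrocyte markers 1, Pdgfra (-2.21), was called lower, and Gfap was at 0.18 and Slc14a1 at -0.16. The part of glia in the Atp1b2 values was not tested.

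Atp1b3 encodes the beta subunit that is widespread in other tissues and lies on chromosome 9 from 96332655 to 96364431. Its only probe set, 1423126_at, gave 8.01, 8.11 and 8.52 in the rhoGFP-positive cells, 9.90, 10.21 and 10.47 in the rhoGFP-negative cells and 10.91, 10.82 and 10.81 in the nestinGFP-positive cells. The groups did not overlap, and the rhoGFP-positive arrays were set apart from the others by more than the spread within any group. The mean of 8.21 ± 0.27 (SD, n = 3) in the rhoGFP-positive cells fell by 1.98 ± 0.17 (SE) log2 units from the 10.19 ± 0.29 of the rhoGFP-negative cells (limma adjusted p = 3.00e-05), with -1.90, -2.10 and -1.96 within numbers 1, 2 and 3. Against the 10.85 ± 0.056 of the nestinGFP-positive cells it fell by 2.63 ± 0.17 (limma adjusted p = 3.91e-06). By size, these were the 305th and 271st largest falls of the 18193 genes. The rhoGFP-negative and nestinGFP-positive cells differed by -0.65 ± 0.17, which missed the threshold (limma adjusted p = 0.0802).

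Atp1b1 encodes the beta subunit that many neurons and epithelia use and lies on chromosome 1 from 164437099 to 164458355. Its probe set 1423890_x_at, of a type that can cross-hybridise with other transcripts, gave 7.80, 8.01 and 7.89 in the rhoGFP-positive cells. The rhoGFP-negative arrays gave 8.33, 9.17 and 8.59 and the nestinGFP-positive arrays 9.40, 9.61 and 9.32, again without overlap and in the order seen for Atp1b3. Replicate 2 of the rhoGFP-negative group stood highest in its group. The mean of 7.90 ± 0.10 (SD, n = 3) was 0.80 ± 0.19 (SE) log2 units below the 8.70 ± 0.43 of the rhoGFP-negative cells (limma adjusted p = 0.0133), and without any single array the adjusted p stayed between 0.00418 and 0.0439. Against the 9.45 ± 0.15 of the nestinGFP-positive cells Atp1b1 fell by 1.55 ± 0.19 (limma adjusted p = 0.000181). Between the other groups it differed by -0.75 ± 0.19 (limma adjusted p = 0.0783).

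Of the 4 other probe sets of Atp1b1, 3 were lower in the rhoGFP-positive cells in both comparisons, by -0.39 to -1.27 against the rhoGFP-negative and by -1.18 to -2.30 against the nestinGFP-positive cells. The largest of these differences, on 1439036_a_at, was called in both, and it takes the gene's place once _x_at and _s_at probe sets are left out. The fifth, 1455949_at, stayed between 6.15 and 6.61 on all 9 arrays without a called difference, at -0.08 ± 0.13 and 0.07 ± 0.13. The mean of 6 markers of inhibitory amacrine neurons ran in the order of Atp1b1 and Atp1b3. It was 7.02 to 8.08 on rhoGFP-positive, 8.87 to 10.06 on rhoGFP-negative and 9.93 to 10.38 on nestinGFP-positive arrays, with the 10.06 on rhoGFP-negative replicate 2. The last 2 groups overlapped, and 0 of the 6 markers were called between them. In the rhoGFP-positive cells 5 of the 6 were called lower than in either other group. Slc6a9 went the other way, at 0.61 without a call between the rhoGFP fractions. Against the nestinGFP-positive cells Slc6a9 was called higher (2.01). The progenitor markers given above ran in the order of Atp1b1 and Atp1b3 too, with all 5 measured called lower between the rhoGFP fractions and with 11.11 on rhoGFP-negative replicate 3. Between the rhoGFP-negative and nestinGFP-positive cells 0 of these 5 were called. Within the rhoGFP-negative group Atp1b1 was highest on replicate 2 and Atp1b3 on replicate 3. The other groups were mixed in this. In the nestinGFP-positive group Atp1b1 and the amacrine mean were both highest on replicate 2. There Atp1b3 was highest on replicate 1 (10.91) and the progenitor mean on replicate 3 (11.62). In the rhoGFP-positive group Atp1b3 and the means of both lists were highest on replicate 3, and Atp1b1 on replicate 2. The mean of 5 measured of 6 ganglion cell markers was 6.24 to 6.43, 6.56 to 6.97 and 7.21 to 8.12, with the 6.97 also on rhoGFP-negative replicate 2. The part of these cells in the fall of the beta subunits was not tested, and in sorted pools fewer cells of a type and less RNA per cell cannot be told apart.

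The RefSeq windows around the start sites of Atp1b1 and Atp1b3, the genes that were lower together, and of Atp2b1, which moved the other way, are shown to set their core promoters side by side. Windows were matched for 3 of the 5 genes, and Atp1b2 and Kcnv2 are named only. Each runs from 250 bases before to 50 bases after the start site, 5′ to 3′ on the gene's strand, and the first of 2 windows is shown for Atp1b3 and for Atp2b1. Atp1b1 is at chr1:164458306-164458605 on the minus strand, Atp1b3 at chr9:96364382-96364681 on the minus strand and Atp2b1 at chr10:98914392-98914691 on the plus strand. Capitals mark the GC box GGGCGG or its reverse complement CCGCCC, and the CCAAT box or its reverse complement ATTGG.
Atp1b1: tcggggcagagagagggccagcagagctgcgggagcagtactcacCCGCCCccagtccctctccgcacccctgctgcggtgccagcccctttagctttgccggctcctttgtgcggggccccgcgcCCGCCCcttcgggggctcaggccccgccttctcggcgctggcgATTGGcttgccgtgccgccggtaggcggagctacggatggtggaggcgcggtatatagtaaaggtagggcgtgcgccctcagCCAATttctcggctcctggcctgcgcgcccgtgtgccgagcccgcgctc
Atp1b3: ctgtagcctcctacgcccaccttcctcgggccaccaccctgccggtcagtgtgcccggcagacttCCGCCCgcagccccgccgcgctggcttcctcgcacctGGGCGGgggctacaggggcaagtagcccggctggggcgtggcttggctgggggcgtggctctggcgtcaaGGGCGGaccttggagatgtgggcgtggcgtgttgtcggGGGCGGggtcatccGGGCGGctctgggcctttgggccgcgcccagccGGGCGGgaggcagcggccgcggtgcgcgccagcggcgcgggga
Atp2b1: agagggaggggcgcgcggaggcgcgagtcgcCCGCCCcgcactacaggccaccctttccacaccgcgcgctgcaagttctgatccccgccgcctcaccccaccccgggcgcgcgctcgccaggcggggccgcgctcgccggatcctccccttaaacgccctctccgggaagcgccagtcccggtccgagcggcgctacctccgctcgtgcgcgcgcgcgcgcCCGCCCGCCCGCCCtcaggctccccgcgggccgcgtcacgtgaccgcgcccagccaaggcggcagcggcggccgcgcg

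The GC box, bound by Sp factors, occurred on either strand 2 times in the Atp1b1 window, 6 times in that of Atp1b3 and 4 times in that of Atp2b1, where 3 of the 4 overlap in 1 run. In the second windows, which are not shown, it occurred 0 times for Atp1b3 and 3 times for Atp2b1. The GC box is present in 35.6% of the 32817 windows of this length in the table. The CCAAT box occurred 2 times in the Atp1b1 window, in 37.4% of all windows, and in neither of the others. The letters TAATCC, read by the photoreceptor homeodomain factors Crx and Otx2 (7.1% of all windows), TGCTGA, a half-site of Maf-type factors such as Nrl (19.5%), and TATAAA (13.6%) were in none of the 3 windows on either strand, nor in the second windows of Atp1b3 and Atp2b1. The windows were rich in G and C, at 71.0%, 76.0% and 79.3%, where the median of all windows was 52.7%. A match or its lack describes these letters in these windows and nothing else.

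Kcnv2 lies on chromosome 19 from 27322061 to 27337179 and is carried by 1 probe set, 1440537_at. It gave 10.81, 10.02 and 10.61 in the rhoGFP-positive cells, 8.41, 8.12 and 7.87 in the rhoGFP-negative cells and 7.80, 7.81 and 6.59 in the nestinGFP-positive cells. The lowest rhoGFP-positive array stood above the highest of the 6 others, and the rhoGFP-negative arrays stood just above the nestinGFP-positive ones. The mean of 10.48 ± 0.41 (SD, n = 3) exceeded the 8.13 ± 0.27 of the rhoGFP-negative cells by 2.35 ± 0.33 (SE) log2 units (limma adjusted p = 0.000577), or by 2.40, 1.90 and 2.74 within numbers 1, 2 and 3. Against the 7.40 ± 0.70 of the nestinGFP-positive cells the rise was 3.08 ± 0.33 (limma adjusted p = 6.62e-05). These were the 106th and 81st largest rises of the 18193 genes. The difference of 0.74 ± 0.33 between the rhoGFP-negative and nestinGFP-positive cells missed the threshold (limma adjusted p = 0.277) and rests in large part on nestinGFP-positive replicate 3: without that array it was 0.33. That array also had the lowest mean of the rod markers, 7.62, and the highest actin 3' minus 5' difference, 0.99; their part in the low value was not tested.

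Atp2b1 lies on chromosome 10 from 98914630 to 99026143. Its probe set 1452969_at gave 10.60, 10.55 and 10.19 in the rhoGFP-positive cells, 9.65, 9.52 and 9.32 in the rhoGFP-negative cells and 9.74, 9.28 and 9.0 in the nestinGFP-positive cells. The rhoGFP-positive arrays were above all others, while the other 2 groups overlapped. The mean of 10.45 ± 0.22 (SD, n = 3) was 0.95 ± 0.19 (SE) log2 units above the 9.50 ± 0.17 of the rhoGFP-negative cells (limma adjusted p = 0.0054), just short of the 2-fold minimum, with 0.95, 1.03 and 0.87 within numbers 1, 2 and 3. Without rhoGFP-positive replicate 3 (1.08) or rhoGFP-negative replicate 1 (1.03) Atp2b1 was called in that comparison. Against the 9.34 ± 0.38 of the nestinGFP-positive cells it rose by 1.10 ± 0.19 (limma adjusted p = 0.00149), and without nestinGFP-positive replicate 3 the difference of 0.93 was below the minimum. The difference between the rhoGFP-negative and nestinGFP-positive cells was 0.15 ± 0.19 (limma adjusted p = 0.733).

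The 2 other probe sets of Atp2b1 gave close differences with wider errors. They were 0.92 ± 0.50 and 0.83 ± 0.34 between the rhoGFP fractions, and 1.11 ± 0.50 and 1.03 ± 0.34 against the nestinGFP-positive cells, of which only the last was called, at a limma adjusted p of 0.04997 over all probe sets. On both, and on the representative probe set, replicate 1 was the highest array of each group, as on the dimmer probe set of Atp1b2; these are the arrays with the high ribosomal RNA control, whose part in this was not tested. Without the 3 replicate 1 arrays the representative differed by 0.95 between the rhoGFP fractions, the same as with them. Averaged over the 3 probe sets, Atp2b1 no longer passed the adjusted p between the rhoGFP fractions (0.90, limma adjusted p = 0.0748). Of the 7 probe sets that do not represent their gene, 4 of them of Atp1b1, 7 had the sign of the representative between the rhoGFP fractions and 6 against the nestinGFP-positive cells.

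**Figure D2:**
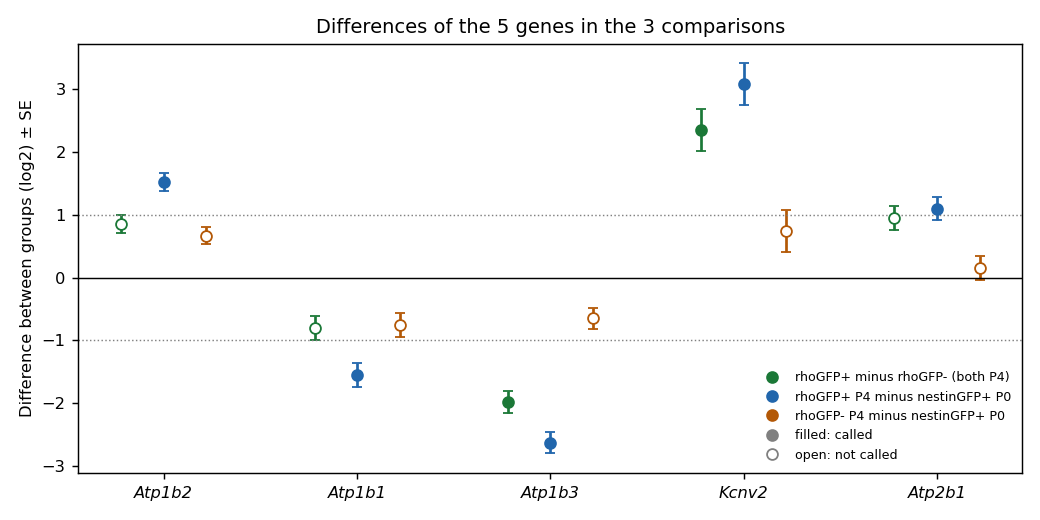
Difference between groups (log2, limma estimate ± SE) of the representative probe set of each gene in the 3 comparisons; filled points were called, and dotted lines mark a 2-fold difference. All 5 genes were called between rhoGFP-positive and nestinGFP-positive cells, Kcnv2 and Atp1b3 between the rhoGFP fractions, and Atp2b1 was at 0.15 between the 2 groups without rods selected.

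**Figure D3:**
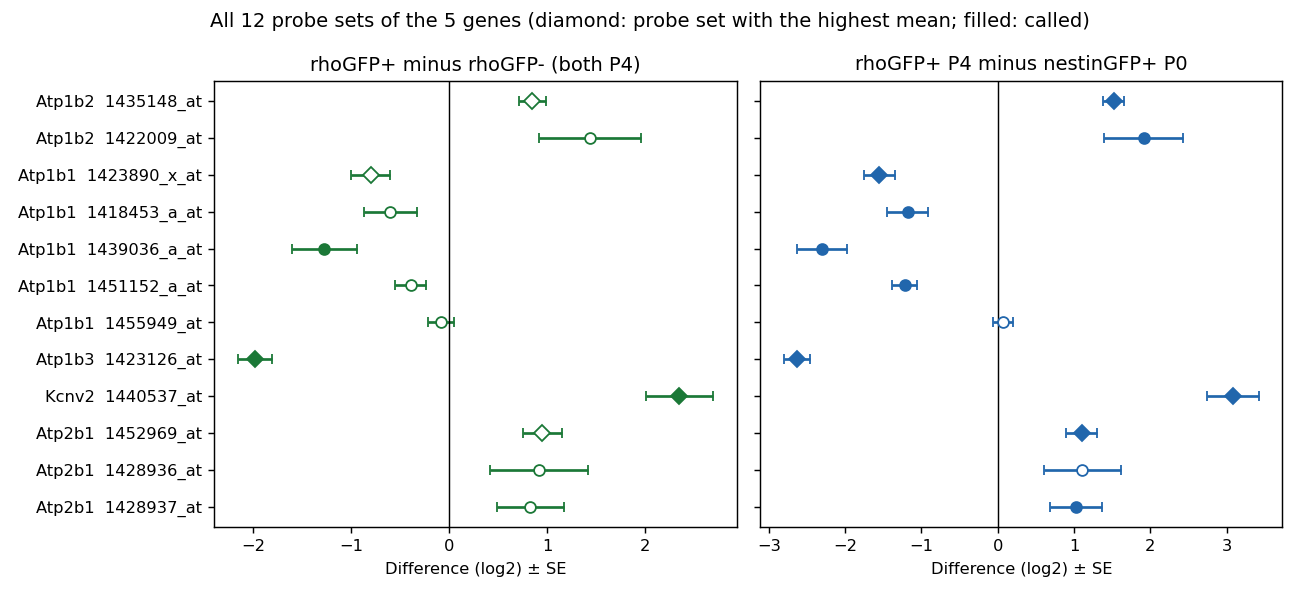
Difference (log2, limma estimate ± SE) of each of the 12 probe sets, between the rhoGFP fractions at left and against nestinGFP-positive cells at right; diamonds mark the representative probe sets and filled points were called over all probe sets. The Atp1b1 probe set 1455949_at lies at -0.08 and 0.07, while all other probe sets of a gene lie on 1 side of 0.

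Across the 9 arrays the genes fell into opposed patterns, given here as a description of arrays that share their groups. The log2 signal of Kcnv2 correlated with that of Atp2b1 at Pearson r = 0.937 and with Atp1b2 at 0.896, and Atp1b1 with Atp1b3 at 0.911. Atp1b2 and Atp1b3 correlated at -0.928. Of 10506 genes searched, the closest in pattern to Atp1b2 were Zbtb7b (r = 0.994), Rbp3 (0.992) and Brf1 (0.991). Those closest to Kcnv2 were Rabepk (0.991), Atp5g3 (0.99) and Erich6 (0.989), and those closest to Atp2b1 were Tigar (0.989), Zdhhc5 (0.982) and Rab28 (0.982). Atp1b3 was matched most closely by Gjc1 (0.997), Kcnk1 (0.996) and Plxnc1 (0.996), and Atp1b1 by Nap1l5 (0.993), Tnc (0.991) and Fam155a (0.99). With 9 arrays in 3 groups, many genes reach such values.

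Among other genes that move the same ions, 61 were listed and 49 measured, and between the rhoGFP fractions 8 were called higher and 8 lower, where 10.9% of all genes were called. FXYD proteins are small membrane proteins that bind the sodium pump and adjust its kinetics. Of their 7 genes, 3 fell in the rhoGFP-positive cells, with a median over the 7 of -0.66 beside 0.01 for all genes. Fxyd6 fell by 2.47 ± 0.31 (limma adjusted p = 0.000298), from 9.55 ± 0.58 to 7.07 ± 0.48 (log2, SD, n = 3), and Fxyd1, known as phospholemman, fell by 1.62 ± 0.15 (limma adjusted p = 4.26e-05). Fxyd7 was at -1.02 ± 0.31 (limma adjusted p = 0.0375) and was not called after the arrays were shifted to a common median (-0.99). The call of Fxyd7 was also lost without rhoGFP-positive replicate 1 (-0.91) or 2 (-0.82) and without rhoGFP-negative replicate 2 (-0.93) or 3 (-0.86). Fxyd1, Fxyd6 and Fxyd7 were called lower against the nestinGFP-positive cells as well, at -1.74, -3.39 and -1.82. In both comparisons 5 of 6 amacrine and 3 of 5 Müller glia markers were called lower in the same cells. The part of those cell types in the FXYD differences was not tested. The remaining pump subunits measured, Atp1a4 and Atp1b4, known from testis and muscle, were at 0.02 each.

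Of 10 calcium pump genes and partners, Atp2b2, the plasma membrane calcium pump of inner ear hair cells and many neurons, was called, and it moved opposite to Atp2b1. Its level was 6.88 ± 0.17 for rhoGFP-positive, 8.23 ± 0.22 for rhoGFP-negative and 8.26 ± 0.0046 for nestinGFP-positive cells (log2, SD, n = 3), a fall of 1.35 ± 0.13 between the rhoGFP fractions (limma adjusted p = 6.71e-05). Averaged over its probe sets the difference was -0.96, below the minimum. The Golgi calcium pump Atp2c1 was at 0.70 ± 0.22 (limma adjusted p = 0.0443). Bsg and Nptn, which encode partner subunits of the plasma membrane calcium pumps, were at -0.12 ± 0.11 and 0.26 ± 0.19, and Atp2a2, the pump of the endoplasmic reticulum, at -0.31 ± 0.13. The median of the 10 was 0.05.

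Of 19 listed potassium and pacemaker channel genes 14 were measured, and 2 fell between the rhoGFP fractions. Kcnc2, a fast delayed rectifier, fell by 2.04 ± 0.21 (limma adjusted p = 9.01e-05) and the pacemaker subunit Hcn3 was at -1.03 ± 0.18 (limma adjusted p = 0.00195). The call of Hcn3 was lost without rhoGFP-positive replicate 2 (-0.90) and without rhoGFP-negative replicate 1 (-0.97). Among the other silent subunits, Kcng1 was at 0.74 ± 0.14 (limma adjusted p = 0.00383), under the 2-fold minimum, while Kcnv1, the nearest relative of Kcnv2, was at 0.06 ± 0.10 with a low signal of 4.52. The median of the 14 was 0.01. No test compared Kcnv2 with these channels.

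Of 12 listed exchangers and cotransporters 9 were measured, and Slc24a1 and Slc12a5 rose and Slc8a1 fell. Slc24a1, the sodium, calcium and potassium exchanger of the rod outer segment, stood at 5.09 ± 0.73 against 3.06 ± 0.19 (log2, SD, n = 3; 2.03 ± 0.30, limma adjusted p = 0.000821), both low signals. Slc12a5, the neuronal potassium and chloride cotransporter, rose by 1.71 ± 0.20 (limma adjusted p = 0.000204). The sodium and calcium exchanger Slc8a1 was at -1.01 ± 0.26 (limma adjusted p = 0.0182), and its call was lost when its probe sets were averaged (-0.71), after the common median (-0.99) and without the replicate 1 arrays (-0.96). The call of Slc8a1 was also lost without rhoGFP-positive replicate 1 (-0.92) or 3 (-0.96) or without rhoGFP-negative replicate 2 (-0.87). The housekeeping sodium, potassium and chloride cotransporter Slc12a2 was at 0.09 ± 0.11.

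Of the channels that let in the ions these pumps remove, 7 of 8 were measured and 6 rose, with a median of 2.76. The rod cyclic-nucleotide-gated channel subunits Cnga1, also one of the rod markers, and Cngb1 rose by 4.93 ± 0.25 and 3.81 ± 0.32, and the calcium channel subunits Cacna1f, Cacnb2 and Cacna2d4 of the photoreceptor terminal by 3.00 ± 0.24, 2.76 ± 0.19 and 1.70 ± 0.19. These differences are larger than those of Atp1b2 (0.85) and Atp2b1 (0.95), while that of Kcnv2 (2.35) lies within their range; no test compared the genes with each other. Cngb3, of the cone channel, rose by 1.56 ± 0.12. Cacna1d fell by 1.80 ± 0.38 (limma adjusted p = 0.00687) on an _s_at probe set, and was at 0.02 with no call when such probe sets were left out.

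Against the nestinGFP-positive cells 8 of the 49 genes were called higher and 10 lower, where 15.6% of all genes were called. Beside the FXYD genes, Atp2b2 (-1.38), Kcnc2 (-2.60) and Hcn3 (-1.16) were again lower, and the silent potassium channel subunit Kcns2 (-1.72) and the exchangers Slc8a1 (-1.31) and Slc8a3 (-1.29) were lower too. Kcng1 was higher (1.11), a call that was lost under cyclic loess (0.99), when its probe sets were averaged (0.57) and without the replicate 1 arrays (0.95), and Slc24a1 was higher by 1.93. Without the replicate 1 arrays Slc8a1 was not called (-0.95), and averaging of probe sets ended the calls of Atp2b2 (-0.81), Kcns2 (-0.76) and Slc8a3 (-0.97). The same 7 cation entry channels gave 6 higher and 1 lower, with a median of 2.81, and Cacna1d was again without a call when _s_at probe sets were left out (-0.19). Between the rhoGFP-negative and nestinGFP-positive cells Cacna2d4 was higher (1.11) and Kcns2 lower (-1.35), and both calls depended on the setting. That of Cacna2d4 was lost with only the 6 arrays compared (limma adjusted p = 0.0519), without the replicate 1 arrays, and without rhoGFP-negative replicate 1 or 2 or nestinGFP-positive replicate 2 or 3. That of Kcns2 was lost when its probe sets were averaged (-0.60) and without nestinGFP-positive replicate 2 (-1.27). With the replicate block Cacna1d (-1.02, limma adjusted p = 0.0122) and the exchanger Slc24a3 (1.12, limma adjusted p = 0.016) were called as well.

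**Figure D4:**
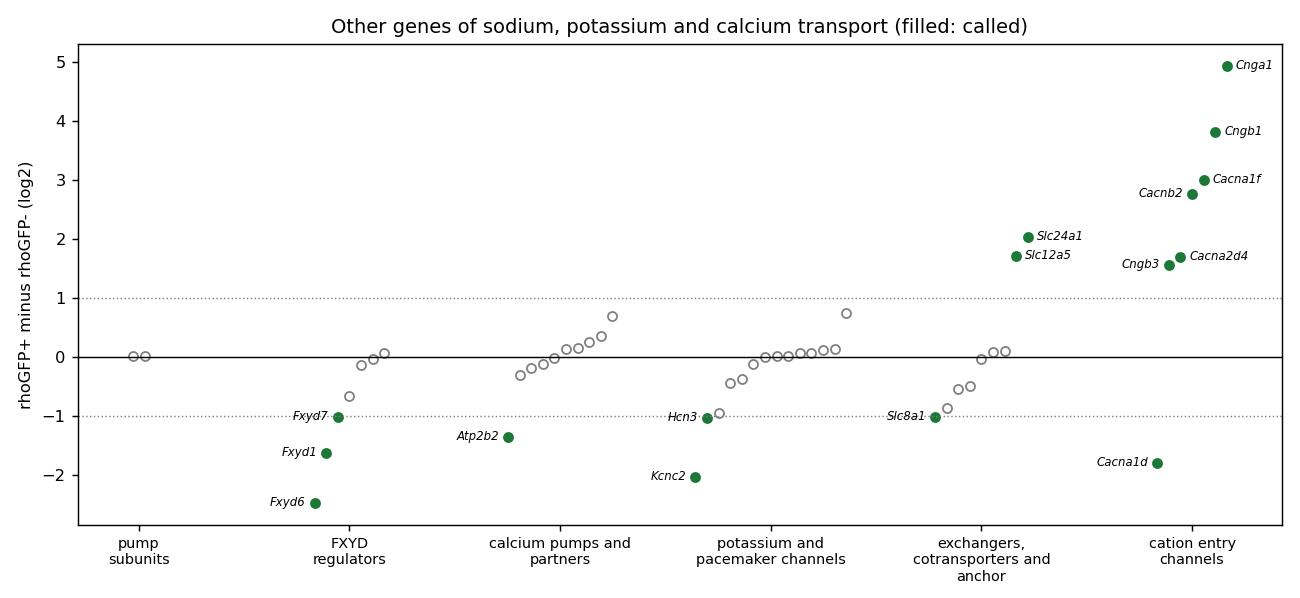
Difference between the rhoGFP fractions (log2, limma estimate) of 49 other genes of sodium, potassium and calcium transport, by list; filled points with names were called. Cation entry channels reach 4.93 with Cnga1, while the called FXYD regulators, Atp2b2, Kcnc2 and Hcn3 lie below -1.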

How the data were processed

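RNA of 9 sorted pools was hybridised to 9 arrays. RNeasy Mini kits served for isolation, and 200 ng of RNA went into each biotinylated cRNA, per the labels' protocols. The deposited values are log2 signals that the authors made with RMA, as their processing notes name it, without a version. The method subtracts background, sets all arrays to the same quantiles and joins the probes of a set, which can compress low signals. There are no detection calls, and the number of arrays limits the precision (median SE of a difference 0.14 log2 units). Array medians ran from 6.08 to 6.17, and no 2 arrays were identical.

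Of 45101 probe sets 64 were controls; of the others 34945 had 1 gene symbol, 932 several and 9160 none listed. Each of 18193 genes was represented by its probe set with the highest mean. The two-sided tests were those of limma 3.58.1 (lmFit, eBayes; R 4.3.3), in 1 fit of all 9 arrays with 3 group means, with Benjamini-Hochberg adjustment over all genes, or over 45037 probe sets for single probe sets. A call needed an adjusted p below 0.05 and a log2 difference of at least 1. The fit was tested on simulated data. Figures used matplotlib 3.10.9.

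Whether a replicate number marks a shared pool is not in the labels. Over genes, same-numbered arrays of the rhoGFP fractions deviated from their groups with a correlation of 0.62, 0.45 and 0.45. The numbers were taken to pair those, from the data and not the design. For rhoGFP-negative with nestinGFP-positive arrays the values were 0.54, 0.15 and 0.23. There rhoGFP-negative replicate 2 correlated with nestinGFP-positive replicate 3 at 0.22, above the 0.15 of the same number, so a pairing of these groups is uncertain. For rhoGFP-positive with nestinGFP-positive arrays the values were 0.52, -0.01 and 0.25.

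The genes and lists were chosen with earlier results of these data known. Named were the 5 genes, for each the 3 genes most correlated with it over 9 arrays among those at or above the 40th percentile of mean signal, and, of each list of related ion transport genes, the called and up to 4 further members; markers are given by list. Genes without a probe set of their own in the annotation used are not analysed here. Alternatives were other normalizations, probe set choices, thresholds and array subsets.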

Additional observations from a re-analysis of the deposited data

How the results depend on the processing

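Over 90 combinations of gene and setting in each comparison, direction and call were kept in 83 between the rhoGFP fractions, in 89 against the nestinGFP-positive cells and in 88 between the other 2 groups. Single probe sets are not among these combinations. The calls gained between the rhoGFP fractions were those of Atp1b2 with the mean of its probe sets (1.15), of Atp1b1 without _x_at and _s_at probe sets (-1.27), of Atp2b1 without single arrays (1.03 and 1.08) and, with no minimum difference, of Atp1b1, Atp1b2 and Atp2b1. With the adjusted p alone, 5 of the 5 genes passed between the rhoGFP fractions and 1, Atp1b2, in the comparison of rhoGFP-negative with nestinGFP-positive cells, and the counts over all genes were 4417, 6508 and 370 in place of 1988, 2838 and 180. The count of 180 between the rhoGFP-negative and nestinGFP-positive cells was the least stable: it was 23 at an adjusted p below 0.01, 28 with only the 6 arrays compared, 453 with the replicate block, and from 19 (without nestinGFP-positive replicate 2) to 559 (without rhoGFP-negative replicate 3) when single arrays were left out. The values without each of the other arrays were 31 and 64 (rhoGFP-negative replicates 1 and 2) and 327 and 60 (nestinGFP-positive replicates 1 and 3); the cause was not tested. The replicate block changed no call of the 5 genes; in that comparison it brought Atp1b1 and Atp1b3 below an adjusted p of 0.05 and added the calls of Cacna1d and Slc24a3. Among the 5 genes, signs turned for Atp2b1 and Atp1b1. Atp2b1, without a call between the rhoGFP-negative and nestinGFP-positive cells, ranged from -0.02 (without nestinGFP-positive replicate 3) to 0.36 (without replicate 1 of that group). The Atp1b1 probe set 1455949_at was at 0.07 for rhoGFP-positive minus nestinGFP-positive cells, where the representative was called at -1.55. For rhoGFP-negative minus nestinGFP-positive cells it was at 0.15, where the representative was at -0.75 without a call. Between the rhoGFP-positive and nestinGFP-positive cells the Atp2b1 probe set 1428936_at was not called (1.11, limma adjusted p = 0.133), nor was Atp2b1 without nestinGFP-positive replicate 3 (0.93). With only the arrays numbered 2 and 3, an alternative chosen after seeing the data, 2, 5 and 0 of the 5 genes were called, as with all arrays. Of the related ion transport genes, Cacna1d turned from a called -1.80 to 0.02 between the rhoGFP fractions without _x_at and _s_at probe sets. All results rest on 3 arrays a group, and no detection calls were used to judge dim probe sets.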
